A study of Mus musculus with 4 samples.

Results

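The Ly6 genes encode small, cysteine-rich proteins that are held on the outer cell surface by a glycosylphosphatidylinositol (GPI) lipid anchor, and most of the mouse family lies in a cluster on chromosome 15. Several are lymphocyte markers: Ly-6C, made from the near-identical genes Ly6c1 and Ly6c2, is displayed by monocytes, plasma cells, memory CD8 T cells and a fraction of CD4 T cells, where it separates resting from activated regulatory T cells. Interferons are known to raise several members. The genes described here are Ly6a, Ly6c1, Ly6c2, Ly6d, Ly6e, Ly6g, Ly6h and Ly6k, taken by the gene symbol of the array's annotation. Of the 8 named genes 7 were measured, each by 1 transcript cluster (the array's unit for a gene), out of 30495 genes in all, and Ly6a is named only. The set was chosen by the measured log2 values of Ly6c1 and Ly6c2, which differ strongly between the control arrays, so every comparison of those arrays over these genes is a description without a test.

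RNA came from CD4 T cells of the spleen, sorted for the green fluorescence that marks Foxp3-expressing regulatory T cells, from mice 7 to 8 weeks old. All animals carried the transgene B6-Tg(Foxp3EGFP-cre)1cJbs/J, which makes a green fluorescent Cre fusion under Foxp3 control. Control animals had that transgene on C57BL/6 (labelled WT, replicates 1 and 3), and the others also had the BMI1-flox allele (labelled KO, replicates 1 and 2), so that deletion of Bmi1, a Polycomb subunit, depends on Foxp3-driven Cre. Zygosity of the allele, and whether a sample was 1 animal or a pool, are not stated in the labels. The sample titles name unstimulated cells, whereas the series text names 24 h of stimulation. With 2 arrays in each group and nothing that names separate animals, a p-value reflects only how far these samples spread, which may be technical.

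Bmi1 itself read 8.98 and 8.98 (log2 expression) in the arrays labelled WT and 9.58 and 9.91 in the arrays labelled KO. It was thus higher under the KO label, but the difference did not reach a limma adjusted p under 0.05. The sources used do not give the exons that its cluster covers or those that are floxed. These values therefore cannot show whether Bmi1 was deleted, and directions below rest on the labels alone. Of 10 regulatory T cell markers 9 were measured, and 0 of those 9 lay below the median gene in all 4 arrays; Foxp3 shares its cluster with other genes and is given no value. Pearson's r between arrays was 0.994 to 0.997 (across genes, which are no replicates). WT replicate 1 was at least 2-fold below each of the 3 others for 14 genes, against 25 genes for WT replicate 3, 10 for KO replicate 1 and 21 for KO replicate 2.

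The sequences just upstream of Ly6c1, Ly6c2 and Ly6g are shown because these neighbours resemble each other in sequence, while Ly6g was level across the arrays and Ly6c1 and Ly6c2 were not. Each is the 250 bases before the most upstream start that RefSeq lists for the gene (mouse build GRCm38.p6), written from 5′ to 3′ on the gene's own strand. Capitals mark matches, on either strand, to the 6 motifs searched. Ly6c1 lies at chr15:75048838-75049087 on the minus strand, Ly6c2 at chr15:75111972-75112221 on the minus strand and Ly6g at chr15:75155011-75155260 on the plus strand.
Ly6c1: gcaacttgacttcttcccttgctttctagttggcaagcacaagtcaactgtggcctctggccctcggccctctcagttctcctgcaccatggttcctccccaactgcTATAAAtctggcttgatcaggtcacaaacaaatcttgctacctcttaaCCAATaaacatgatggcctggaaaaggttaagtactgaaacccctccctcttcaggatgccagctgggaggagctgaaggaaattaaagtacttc
Ly6c2: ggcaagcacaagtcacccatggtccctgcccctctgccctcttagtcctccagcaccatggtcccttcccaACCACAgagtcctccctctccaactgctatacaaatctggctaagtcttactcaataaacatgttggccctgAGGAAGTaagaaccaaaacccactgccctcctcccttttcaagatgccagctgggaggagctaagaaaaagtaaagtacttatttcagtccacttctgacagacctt
Ly6g: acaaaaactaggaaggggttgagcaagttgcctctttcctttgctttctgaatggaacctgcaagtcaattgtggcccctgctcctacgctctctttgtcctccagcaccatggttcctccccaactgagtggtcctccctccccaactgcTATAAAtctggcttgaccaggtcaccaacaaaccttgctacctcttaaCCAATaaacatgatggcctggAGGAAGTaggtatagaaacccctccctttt

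In a pairwise alignment, 170 of 210 aligned bases (81.0%) were identical between the Ly6c1 and Ly6c2 windows. Ly6c1 and Ly6g shared 175 of 204 (85.8%), and Ly6c2 and Ly6g 139 of 171 (81.3%). A motif was counted wherever its letters matched in the window, at any distance from the start, so a match need not be a working site. The letters of the TATA box (TATAAA) matched upstream of Ly6c1 and Ly6g but not Ly6c2, and 12.4% of all 32851 windows of this length held them. The CCAAT box (CCAAT) was likewise in Ly6c1 and Ly6g, against 33.8% of windows. The ETS site (AGGAAGT) was in Ly6c2 and Ly6g, against 7.69%, and the RUNX site (TGTGGT) in Ly6c2, against 14.0%. Neither the core of the interferon-stimulated response element (in 2.98% of windows) nor the gamma-activated site (TTCNNNGAA, in 7.02%) matched in any of the 3 windows. No searched motif overlapped another in these windows. The other 5 named genes have no entry in the table of upstream sequences used here.

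Ly6c2, the gene whose product is the Ly-6C of monocytes and many T cells, had log2 expression values of 8.60 and 13.38 in WT replicates 1 and 3 and of 14.07 and 13.33 in KO replicates 1 and 2. WT replicate 1 stood far below the others, and WT replicate 3 lay within the span of the arrays labelled KO. Between the WT arrays the difference was 4.78 on the log2 scale, 27.5-fold, whereas the arrays labelled KO were within 1.67-fold of each other. Among all 30495 genes it was the difference of rank 2 in size between the WT arrays.

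Ly6c1, its neighbour and close copy, read 9.23 and 11.40 in WT replicates 1 and 3, and 11.88 and 11.43 in KO replicates 1 and 2. The order was almost the same as for Ly6c2, with WT replicate 1 lowest and the other 3 arrays within 0.48 of each other. WT replicate 3 was 4.50-fold above WT replicate 1, rank 23 of all genes by size. Because the genes are near-identical, signal can be shared between their clusters, and the labels do not say which probes form each cluster, so the values of Ly6c1 and Ly6c2 are not fully separate measurements. In RNA from bulk cells, fewer Ly-6C-bearing cells and less RNA in each cell cannot be told apart.

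Ly6e, a broadly made member known as a thymocyte antigen and an inhibitor of coronavirus entry, read 8.92 and 10.18 in WT replicates 1 and 3 and 10.55 and 10.11 in KO replicates 1 and 2. Again WT replicate 1 was the low array, 2.39-fold below WT replicate 3, and the arrays labelled KO lay on both sides of WT replicate 3.

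Ly6k, best known from the testis and from sperm function, read 5.75 and 7.64 in WT replicates 1 and 3 and 6.91 in both KO replicates. Here WT replicate 1 was lowest and WT replicate 3 highest, 3.71-fold apart, with the arrays labelled KO between them.

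Ly6d, a marker of early B-lineage commitment, read 4.44 and 5.26 in the WT arrays and 5.82 and 4.90 in the KO arrays. WT replicate 1 was again lowest, but the arrays labelled KO differed from each other by 0.92, more than the WT arrays did (0.82), and Ly6d was below the median gene in 2 of the 4 arrays.

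Ly6g, the neutrophil antigen of the Gr-1 antibody, and Ly6h, a member of neural tissue, hardly varied. Ly6g read 5.33 and 5.25 in the WT arrays and 5.37 and 5.36 in the KO arrays. Ly6h read 4.10 and 3.98, then 4.0 and 4.05, below the median gene in all 4 arrays. For both, WT replicate 1 lay slightly above WT replicate 3.

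**Figure D1:**
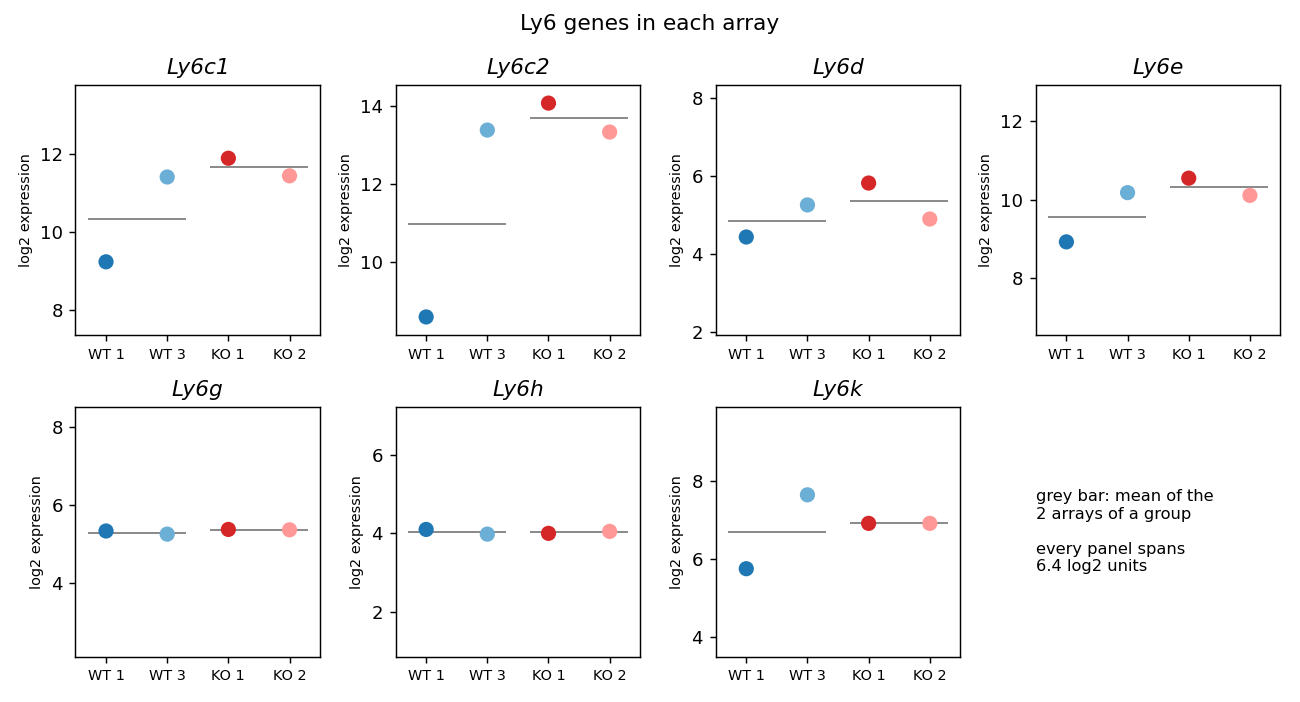
Log2 expression (y axis) of the 7 measured Ly6 genes in each of the 4 arrays (x axis), with a grey bar for the mean of the 2 arrays of a group; all panels span the same number of log2 units. WT replicate 1 is the lowest point for Ly6c1, Ly6c2, Ly6d, Ly6e and Ly6k, while Ly6g and Ly6h are level.

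Counted over the 7 genes, WT replicate 1 was the lowest array for 5, where 24.3% of all genes had it lowest. It was at least 2-fold below WT replicate 3 for 4 of the 7 (Ly6c1, Ly6c2, Ly6e and Ly6k), where 0.334% of all genes were, and at least 2-fold above it for 0 of the 7, where 0.364% were. The same 4 genes were at least 2-fold below each of the 3 other arrays in WT replicate 1, where 0.0459% of all genes were. The choice of the set used these arrays, so nothing is read from those shares. In the arrays labelled KO, which the choice did not use, 0 of the 7 genes differed by at least 2-fold, where 0.521% of all genes did.

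**Figure D2:**
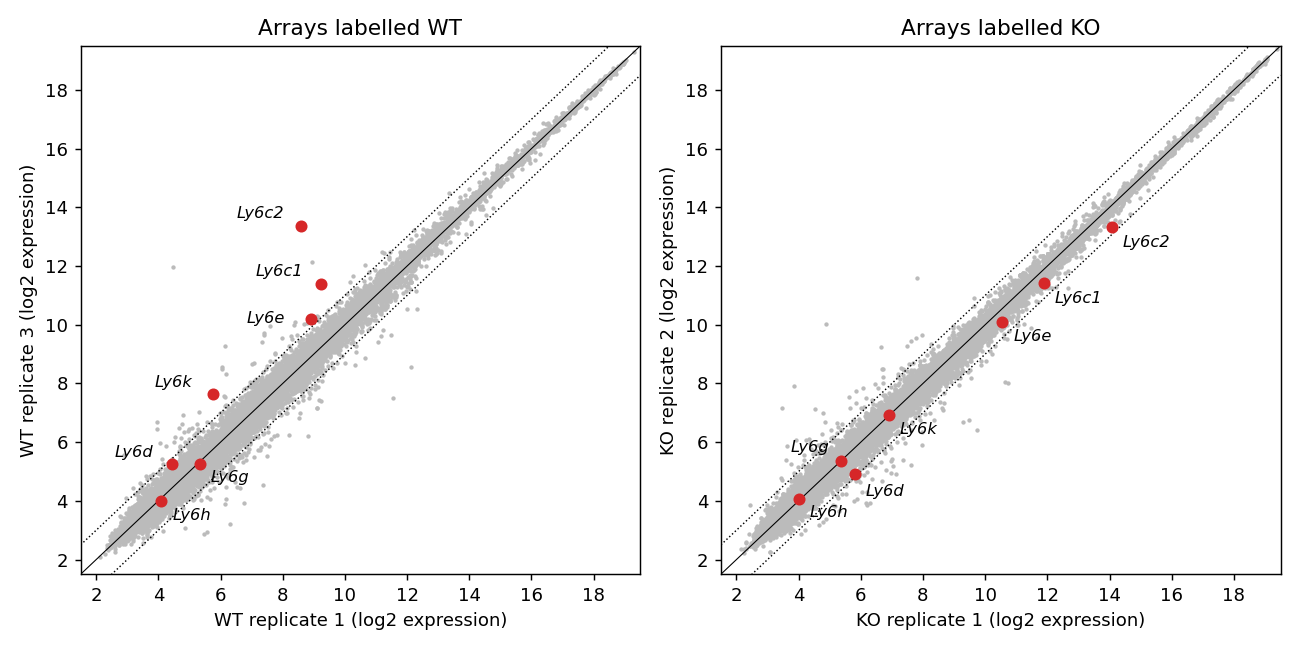
Log2 expression of 30495 genes (grey points) in WT replicate 1 against WT replicate 3 (left) and in KO replicate 1 against KO replicate 2 (right), with the 7 Ly6 genes in red; the solid line marks equality and the dotted lines a 2-fold difference. Ly6c2, Ly6c1, Ly6k and Ly6e lie outside the dotted lines on the left, and no Ly6 gene does on the right.

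Of the 14 genes at least 2-fold lower in WT replicate 1 than in every other array, 8 are protein-coding, and 4 of those are the Ly6 genes above. The other protein-coding genes are Apobec3, Cxcr6, Pianp and Tubb2a. Chromosome 15 holds 5 of the 14, namely the 4 Ly6 genes and Apobec3. Over the whole chromosome, 11 of 1026 measured genes (1.07%) differed by at least 2-fold between the WT arrays, where 0.698% of all genes did. The 11 include the 4 Ly6 genes, which the choice of the set put there, and without the members it was 7 of 1019 (0.687%).

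Along the chromosome 15 cluster the low values did not form an unbroken run. In genome order Ly6c1 and Ly6c2 are adjacent among the family genes, and other relatives lie between Ly6d, Ly6k, Ly6e and Ly6c1. Ly6m, between Ly6k and Ly6e, read 4.29 and 4.90 in WT replicates 1 and 3 and 4.53 and 4.64 in KO replicates 1 and 2, with WT replicate 1 again lowest. Gml and Gml2, which also lie there, did not have WT replicate 1 lowest. Ly6i, which lies between Ly6e and Ly6c1, read 6.99 and 6.69 in WT replicates 1 and 3, and 6.15 and 6.36 in KO replicates 1 and 2. WT replicate 1 was therefore the highest array for Ly6i. Ly6a2, the next family gene after Ly6c2, read 4.96, 4.96, 4.97 and 5.04 in the same order of arrays, and Ly6g follows it. Ly6m, Gml, Gml2 and Ly6a2 were below the median gene in all 4 arrays, and differences of such dim genes can be understated. Of the 22 measured family genes of the chromosome, 7 are members and 15 are not. At least 2-fold different between the WT arrays were 4 of the 22, where 0.698% of all genes were, and all 4 are members. WT replicate 1 was lowest for 10 of the 22, where 24.3% of all genes had it lowest, and 5 of those 10 are members. The choice of the members used these arrays, so nothing is read from these counts.

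**Figure D3:**
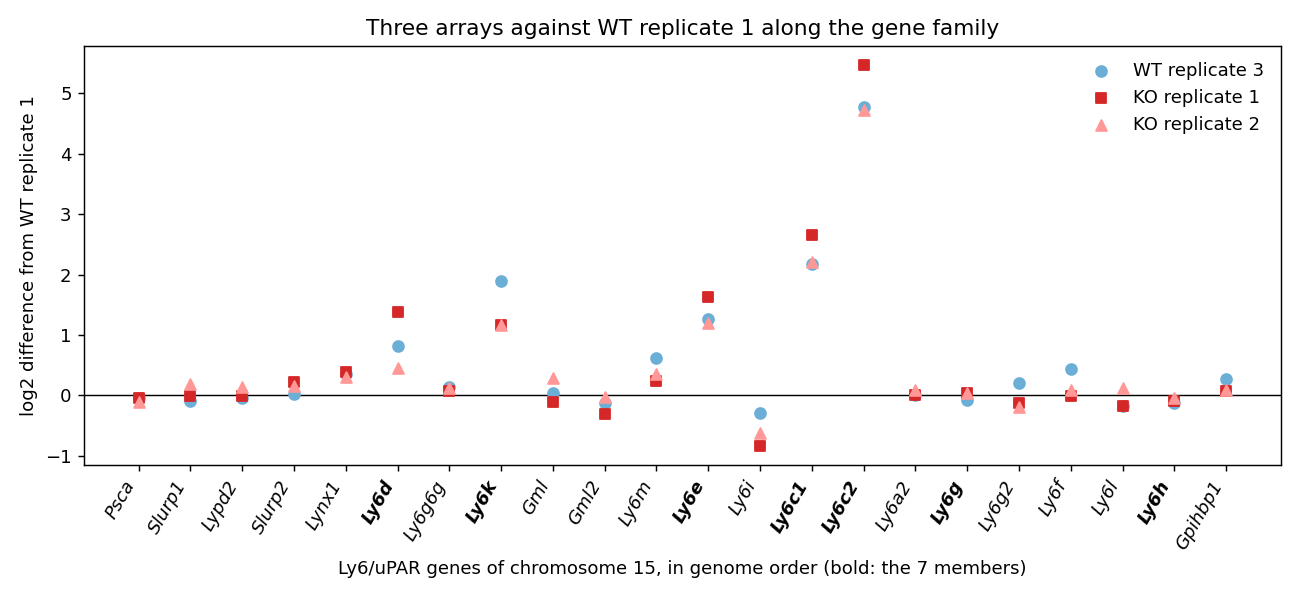
Log2 difference of WT replicate 3, KO replicate 1 and KO replicate 2 from WT replicate 1 (y axis) for 22 measured Ly6/uPAR genes of chromosome 15 in genome order (x axis, not to scale; members in bold). The points of Ly6c2, Ly6c1, Ly6e and Ly6k lie at least 1 log2 unit above the zero line in all 3 arrays, and those of Ly6i lie below it.

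The genotypes were compared next, which is the question of the design. None of the 5 members that could be tested passed: 0 of 5 had a Benjamini-Hochberg adjusted p under 0.05 in limma over all 30495 genes, where 2 genes passed (0.00656%), and 0 of 5 had an unadjusted p under 0.05, where 10.1% of all genes did. Ly6e had the smallest p. It averaged 9.55 ± 0.89 in the arrays labelled WT and 10.33 ± 0.31 in those labelled KO (SD, n = 2 each), a difference of 0.78 (SE 0.43, 95% interval -0.32 to 1.88, limma adjusted p 0.629). Ly6d differed by 0.51 (SE 0.39, interval -0.49 to 1.51) and Ly6k by 0.21 (SE 0.60, interval -1.31 to 1.74). The intervals of these 3 genes hold both 0 and a 2-fold rise, and that of Ly6k a 2-fold fall as well, so these arrays cannot tell such differences from none.

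The level members had narrow intervals. Ly6g differed by 0.07 (SE 0.09, interval -0.16 to 0.31) and Ly6h by -0.01 (SE 0.08, interval -0.23 to 0.20), both well short of a 2-fold difference in either direction. Ly6h was below the median gene in all 4 arrays and Ly6g little above it, and differences of such dim genes can be understated. Limma adjusted p for Ly6d, Ly6k, Ly6g and Ly6h lay between 0.751 and 0.972.

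Ly6c1 and Ly6c2 are described without a test. Ly6c2 averaged 10.99 ± 3.38 in the arrays labelled WT and 13.70 ± 0.52 in those labelled KO (SD, n = 2 each), a mean difference of 2.71. The groups overlapped, and the difference rested largely on WT replicate 1: against WT replicate 3 alone the KO mean was 0.32 higher, and against WT replicate 1 alone 5.10 higher. Ly6c1 averaged 10.31 ± 1.53 and 11.65 ± 0.32 (SD, n = 2 each), a mean difference of 1.34, which was 0.25 against WT replicate 3 alone. Its groups did not overlap, by 0.03 on the log2 scale.

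The differences of Ly6e, Ly6d and Ly6k moved with the array left out. Without WT replicate 1 the difference was 0.15 for Ly6e (limma adjusted p 0.877), 0.10 for Ly6d (0.960) and -0.73 for Ly6k (0.591), so that of Ly6k turned direction. Without WT replicate 3 it was 1.41 for Ly6e (limma adjusted p 0.546), 0.92 for Ly6d (0.631) and 1.16 for Ly6k (0.546). Ly6d also depended on the KO arrays: its difference was 0.05 with replicate 1 of that group left out (limma adjusted p 0.983) and 0.97 with replicate 2 left out (0.802). In these fits the lone array of a group is assumed to vary like the others. Over the 7 genes, 6 differences were above 0, with a median of 0.51, but this includes Ly6c1 and Ly6c2. Over the 5 tested genes 4 were above 0 with a median of 0.215, beside 15550 of 30495 and a median of 0.005 over all genes. Without WT replicate 1 the median over the 7 genes was 0.115. The arrays did not overlap, with KO higher, for 2 of the 7 (Ly6c1 and Ly6g), near the 20.9% of all genes, and with KO lower for 0, where 17.5% of all genes did so.

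**Figure D4:**
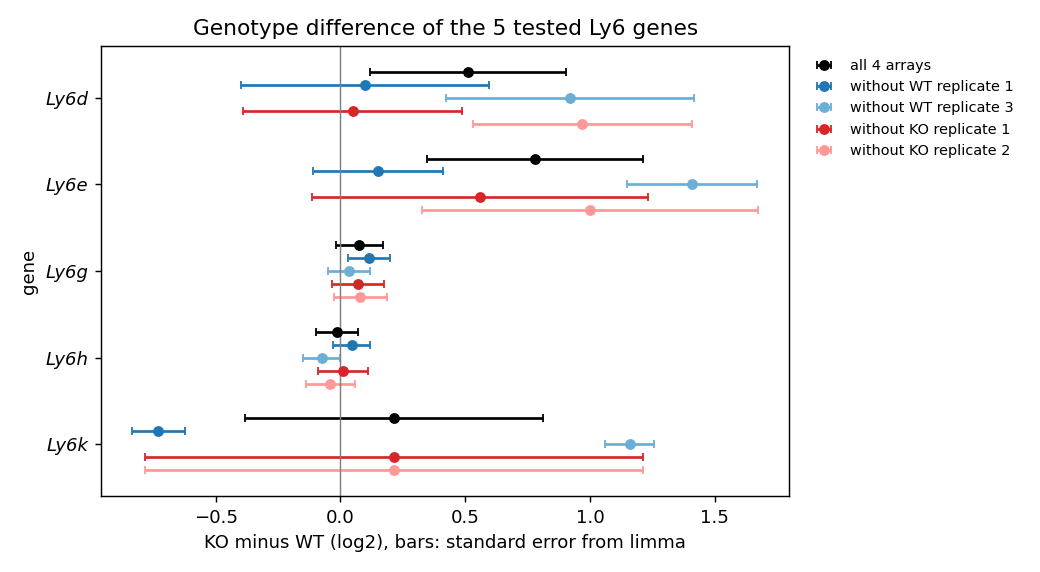
KO minus WT difference on the log2 scale (x axis) of the 5 tested Ly6 genes (y axis) from all 4 arrays and without each array in turn; bars are standard errors from limma. The points of Ly6e, Ly6d and Ly6k move with the array left out, between -0.73 and 1.16 for Ly6k, while Ly6g and Ly6h stay near 0.

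The protein-coding genes with the most similar pattern, the Ly6 members left out, were found by the root mean square difference between 4 centred values (each gene minus its own mean) and the mean centred profile of Ly6c1 and Ly6c2. On this measure of likeness a gene that did not vary would score 1.61, and Ly6c1 and Ly6c2 themselves score 0.58. Apobec3, a cytidine deaminase that restricts retroviruses, came nearest at 0.62. It read 7.41 and 9.71 in WT replicates 1 and 3, and 9.78 and 9.68 in KO replicates 1 and 2, so the low array was the same and the 3 others were level.

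The other 9 of the 10 nearest genes outside the members scored 0.99 to 1.13. Pianp read 6.10 in WT replicate 1 and 7.28 to 7.58 in the other arrays, and Cxcr6, a chemokine receptor of tissue-homing T cells, 3.61 and 4.68 to 4.84. Both resembled Apobec3 in that WT replicate 3 was level with the arrays labelled KO. Il1r2, a decoy receptor for interleukin-1, read 6.83 and 7.62 in WT replicates 1 and 3 and 9.05 and 9.25 in the arrays labelled KO, so that WT replicate 3 was on the low side. Pdlim1, Dstn, an actin-severing factor, and Ttbk2 shared that second form, with WT replicate 3 nearer to WT replicate 1 than to the arrays labelled KO. Tubb2a, a tubulin, Insl6 and the proliferation marker Mki67 lay between these forms. On the same scale the members Ly6e, Ly6k and Ly6d scored 1.00, 1.09 and 1.21, so that Ly6e and Ly6k would fall among the 10. These genes were chosen for their pattern, so no test is given.

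**Figure D5:**
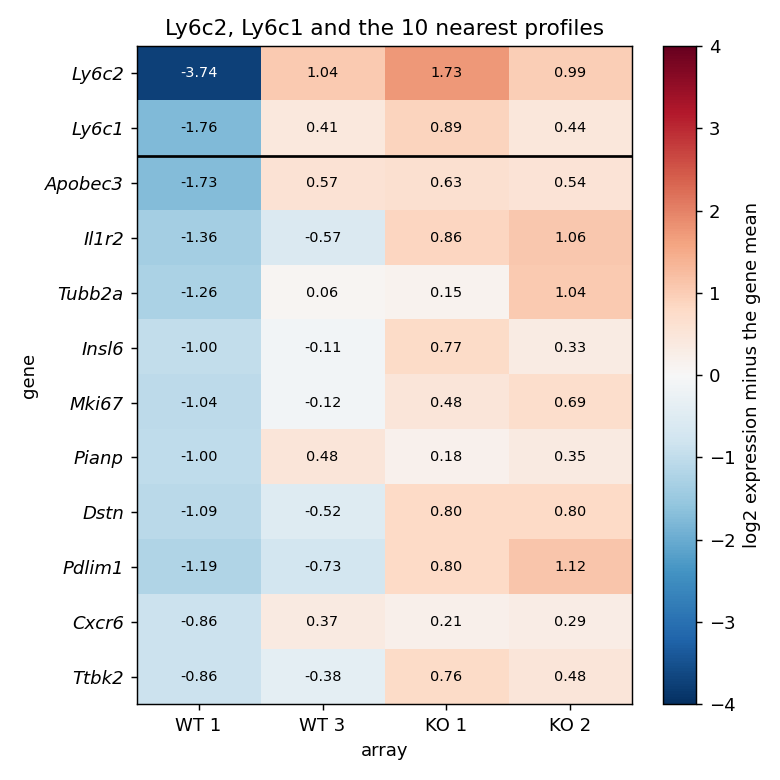
Log2 expression minus each gene's own mean (colour and printed value) in the 4 arrays (x axis) for Ly6c2, Ly6c1 and the 10 protein-coding genes of nearest profile outside the members (y axis, nearest first). WT replicate 1 is the lowest array in every row, and Apobec3 is the row nearest to the Ly6c pair.

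No other gene of the Ly6 and urokinase-receptor (uPAR) fold that was listed passed the genotype test. Of 14 relatives near the members 0 passed in either direction (limma adjusted p under 0.05), in the arrays labelled KO 7 read higher and 7 lower, and the median was 0.02. Ly6i had -0.59 (SE 0.16) and Ly6g2 -0.26 (SE 0.11). Of 18 relatives elsewhere in the genome 0 passed, 10 were higher and 8 lower, and the median was 0.01. Plaur, the urokinase receptor, had -0.36 (SE 0.13) and Ly6g5b 0.29 (SE 0.10).

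The enzymes that build and attach the GPI anchor, on which the Ly6 proteins depend, gave 0 calls in either direction among 25 measured of 28. In the arrays labelled KO 7 of these read higher and 18 lower, with a median of -0.135, beside 14647 of 30495 lower and a median of 0.005 over all genes. Pigv, a mannosyltransferase of the pathway, had -0.46 (SE 0.14), Pigb, another, -0.26 (SE 0.12), Gpaa1, a subunit of the transamidase that attaches the anchor, -0.23 (SE 0.12) and Pigx 0.21 (SE 0.09). Without WT replicate 1, 19 of the 25 were lower and the median was -0.145. 

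Interferons are known to raise several Ly6 genes, so type I interferon response genes were listed. The part of interferon in the Ly6 values was not tested. The mean of 27 measured genes (of 29) was 8.92 and 8.54 in WT replicates 1 and 3, and 8.41 and 8.19 in KO replicates 1 and 2. Of these genes 24 were lower in WT replicate 3 than in WT replicate 1, where 15644 of 30495 genes were. At least 2-fold lower were 3 of them, where 0.364% of all genes were, and 0 were at least 2-fold higher, where 0.334% were. In the genotype comparison 0 of 27 passed, with 3 reading higher under the KO label, 24 lower and a median of -0.40. Over all genes 14647 of 30495 were lower and the median was 0.005. Usp18, which limits interferon signalling, had -1.44 (SE 0.20), Oas3 -0.91 (SE 0.16), Bst2 -0.48 (SE 0.10) and Oasl1 -0.44 (SE 0.10). Without WT replicate 1, 20 of 27 were lower and the median was -0.17. Of the interferon-gamma-inducible GTPases, 5 of 10 measured genes (of 14) read higher and 5 lower under the KO label, with 0 calls. Igtp had 0.47 (SE 0.10), Iigp1 0.515 (SE 0.12), Irgm2 -0.335 (SE 0.16) and Irgm1 -0.18 (SE 0.13). The mean of the 10 genes was 10.62 in WT replicate 1 against 10.63 in WT replicate 3.

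Ly-6C is known to separate resting from activated regulatory T cells, so genes of these states were listed too. Among 9 measured central regulatory T cell genes (of 11), 0 differed by at least 2-fold between the WT arrays, where 0.698% of all genes did, and the median of WT replicate 3 minus WT replicate 1 was 0.09. Among 14 effector genes (of 15) it was 0.12, again with 0 at least 2-fold apart. In WT replicate 3, 7 of the 9 central genes read higher than in WT replicate 1 and 2 lower. Of the 14 effector genes 12 read higher there and 2 lower. Over all genes 14121 of 30495 read higher, with a median of -0.01. Tigit, an inhibitory receptor of activated cells, read 9.82 in WT replicate 1 against 10.76, 10.93 and 10.73 in WT replicate 3 and KO replicates 1 and 2. Between genotypes 0 genes of either list passed. Il7r, the interleukin-7 receptor of resting T cells, had -0.93 (SE 0.15), Ccr7, a lymph node homing receptor, 0.62 (SE 0.11), Lef1, a transcription factor of resting cells, 0.44 (SE 0.12) and Satb1 0.16 (SE 0.11). In the central list 3 were higher and 6 lower. Of the effector genes, Ccr4 had -0.76 (SE 0.18), Klrg1 -0.59 (SE 0.14), the adhesion receptor gene Cd44 0.51 (SE 0.13) and Batf 0.51 (SE 0.25), and 9 were higher and 5 lower.

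Markers of other cells that carry Ly6 proteins were examined beside these values. For each list a summed level was taken as log2 of the sum of linear values. For the CD8 T and natural killer cell list (9 of 9 measured) it was 11.32 in WT replicate 1 and 12.05 in WT replicate 3. In the arrays labelled KO it was 12.31 and 12.97, so this sum too was lowest in WT replicate 1. Its main terms are Cd8b1 and Nkg7. Of the 9 genes 8 read higher in WT replicate 3 than in WT replicate 1, where 14121 of 30495 genes did. Under the KO label 6 read higher and 3 lower, beside 15550 of 30495 higher over all genes. In WT replicates 1 and 3 and KO replicates 1 and 2, Cd8b1 read 9.74, 10.78, 10.71 and 11.26 and Nkg7 10.48, 11.09, 11.58 and 12.31. Cd8a stayed between 4.07 and 4.23 and was below the median gene throughout. Prf1 was lowest in KO replicate 2 (5.57) and Ncr1 in WT replicate 3 (4.02). The part of these cells in the Ly6c1 and Ly6c2 values was not tested. The plasma cell list (7 of 7) had a summed level of 11.14 and 11.38 in the WT arrays and 11.72 and 11.40 in the KO arrays, a sum in which Xbp1, at 10.98 to 11.50, is the main term. Of its 7 genes 6 read higher in the arrays labelled KO: Ighg2b, an antibody heavy chain gene, read 5.62 and 5.63 in the WT arrays and 7.51 and 7.36 in the KO arrays (1.81, SE 0.12, limma adjusted p 0.106), and Jchain differed by 1.03 (SE 0.13). Between the WT arrays 6 of the 7 read higher in WT replicate 3 than in WT replicate 1 and 1 lower. Their median difference was 0.10, beside -0.01 over all genes. The part of plasma cells was not tested. In the monocyte and macrophage list (10 of 11) the summed level was 8.37 and 8.33 against 8.22 and 8.36, and 8 genes were below the median gene in all arrays. The part of monocytes was not tested. The neutrophil list (11 of 11) gave 8.17 and 8.17 against 8.90 and 8.24, with 9 genes below the median gene in all arrays and Cxcr2 at 8.24 in KO replicate 1. The plasmacytoid dendritic cell list (7 of 7) spanned 8.36 to 8.53 over the arrays, with 3 genes below the median gene throughout. The B cell list (8 of 9) spanned 8.28 to 8.59, with 7 genes below the median gene throughout and Cd79b (7.42 to 7.91) as the main term. The endothelial list (8 of 8) spanned 10.62 to 10.85, with 7 genes below the median gene throughout and Pecam1 (10.53 to 10.78) as the main term. The erythroid list (2 of 5) spanned 5.50 to 5.60, with its 2 genes below the median gene throughout.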

How the data were processed

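The deposited values are log2 expression of 65528 transcript clusters on 4 arrays, which the authors made with RMA and Transcriptome Analysis Console per the submitters' processing notes, which give no version or order. Base 2 is taken from RMA and from the range, 1.82 to 19.38. Array medians ran from 4.65 to 4.72. Background handling and build are not stated. All sample columns were used. Names came from the platform annotation, with symbols updated from RefSeq (GRCm38.p6): 31040 had 1 gene, 1477 several (not used) and 33011 were not listed. The brightest cluster of a gene was kept, giving 30495 genes without a filter.

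KO minus WT was tested with limma 3.58.1 in R 4.3.3 (lmFit and trended eBayes, two-sided), adjusted by Benjamini-Hochberg over all genes and a threshold of 0.05. An exact test of 2 arrays against 2 cannot go below p = 0.333. Members and lists were chosen with earlier results of these data known, and the motifs after the sequences were seen. Named genes were all members, the 10 nearest protein-coding profiles, and up to 4 genes of smallest p per list. Tigit, Ly6a2, Ly6m, Gml, Gml2 and the marker genes were also named, chosen after their values were seen. Alternatives were median-centring, a further quantile normalization, bright genes alone, the mean of all clusters, other eBayes settings, all transcript clusters and leaving out each array.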

Additional observations from a re-analysis of the deposited data

How the results depend on the processing

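No paired analysis was possible because the groups share only replicate number 1. The count of genes past the threshold, 2 with all arrays, was 1 after median-centring, 0 after quantile normalization, 0 without an intensity trend, 0 with robust settings, 13 among bright genes alone (9 higher, 4 lower) and 4 over all transcript clusters (1 higher, 3 lower). It was 0 when any 1 array was left out, where limma gave 1677 to 2785 genes with an unadjusted p under 0.05. With all arrays limma gave 2882, 3107 and 3008 such genes after quantile normalization, without a trend and with robust settings. No tested Ly6 gene passed under any alternative that gave it a value. The fit over all transcript clusters was only counted, and Ly6h was not among the bright genes. Ly6h, -0.015 with all arrays, was 0.0075 after quantile normalization and, when any 1 array was left out, between -0.075 and 0.045. Ly6k lay between -0.73 and 1.16 when any 1 array was left out. The difference between WT replicates 1 and 3 of Ly6g, 0.08, was 0.03 after median-centring and 0.03 after quantile normalization. That of Ly6c2 stayed between -4.83 and -4.78 under those settings and that of Ly6c1 between -2.22 and -2.11. Without WT replicate 1 the mean KO minus WT difference of Ly6c2 went from 2.71 to 0.32 and that of Ly6c1 from 1.34 to 0.25. The table carries no detection call, so differences of dim genes such as Ly6d, Ly6g and Ly6h can be understated.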

Other observations

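Some genes differed between the WT arrays in the opposite direction to Ly6c2, and they are given as values chosen after the data were seen. WT replicate 1 was at least 2-fold above each other array for 26 genes, against 34 for WT replicate 3, 17 for KO replicate 1 and 27 for KO replicate 2. Ifi206, an interferon-inducible gene of the PYHIN family on another chromosome than the Ly6 cluster, read 11.56 and 7.52 in WT replicates 1 and 3, and 7.25 and 7.61 in KO replicates 1 and 2. Its other 3 arrays were nearly level, as they were for Apobec3.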
